A study of Mus musculus with 49 samples.

Results

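Cells of the synovial fluid 3 days after serum transfer were set against leukocytes of the peripheral blood of the same day. The members were chosen by title and day alone and made up 6 of the 49 arrays of the series, 3 of fluid cells and 3 of blood leukocytes. The series followed arthritis induced by K/BxN serum in whole ankle, synovial fluid cells and blood leukocytes, on Affymetrix mouse arrays. All recipients were male B6 mice of 6 weeks, and every animal of both groups had received K/BxN serum, so that neither group is untreated.

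The fluid group was labelled whole synovial fluid cells. Replicate 1 was washed out of dissected ankles, and replicates 2 and 3 were collected while the ankles were dissected. The blood group was labelled leukocytes. For blood replicates 1 and 2, red cells were lysed and 75 ng of RNA was amplified with the MessageAmp kit, and the labels call them biological replicates. Blood replicate 3 was described as leukocytes whose RNA went through a pair of in vitro transcription rounds. Nothing in the labels says that the fluid replicates came from separate animals. The p-values measure the spread between arrays within groups, pooled over all 30 fluid and blood arrays. This spread may be technical.

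Serum of K/BxN mice carries antibodies to glucose-6-phosphate isomerase, and their immune complexes in the joint engage complement and Fc receptors. Neutrophils are recruited from the blood by leukotriene B4, interleukin 1 and ligands of CXCR2, and they are the main cell of the inflamed joint fluid, with monocytes and macrophages beside them. Blood leukocytes of a mouse, by contrast, are rich in B and T lymphocytes.

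Each value below is the log2 of the deposited intensity, and each difference is fluid minus blood on that scale, with its standard error from limma and a p adjusted over all 8251 genes by Benjamini-Hochberg. A gene rose or fell where the adjusted p was under 0.05. The 34 negative-control probe sets centred on 4.40, and their 95th percentile, 6.85, is taken as the limit of background. Where a group's mean was not above this limit its level is not told from background, the log2 difference is at best a lower bound, and no fold is given. Array medians lay between 57.7 and 61.8 intensity units in fluid and between 60.5 and 62.8 in blood. Pearson's r over genes was 0.959 to 0.985 within fluid, 0.971 to 0.992 within blood and 0.880 to 0.908 between them. The log2 ratio of 3' to 5' beta-actin probe sets, a measure of RNA quality, overlapped between the groups, with 1.59 to 2.39 in fluid and 1.74 to 2.69 in blood. The same ratio for Gapdh did not overlap, with 2.91 to 3.50 in fluid and 3.52 to 3.85 in blood. Its part in the differences was not tested. These are bulk samples, in which fewer cells of a type and less RNA per cell cannot be told apart. By label, fluid and blood were also collected and prepared in different ways. Tissue and preparation therefore cannot be told apart in any difference below.

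At day 3, 1317 genes were higher in fluid cells (16% of 8251) and 1203 were lower (14.6%), 2520 in all (30.5%). A mean above background in fluid or blood was found for 1016 of these rises and 616 of these falls. For the others neither group was told from background. The arrays of fluid and blood did not overlap for 3106 genes (37.6%), 1485 higher in fluid (18%) and 1621 lower (19.6%). Differences above 2 on the log2 scale were mostly upward, at 193 genes higher and 62 lower. The rises also held more often when single arrays were left out: 884 of the rises and 519 of the falls kept their call in each of 6 such fits. The array weights that limma estimates, not used here, ran from 0.246 for fluid replicate 1 and 0.292 for blood replicate 1 to 4.49 for fluid replicate 2. The count of falls was 731 without blood replicate 2, 740 without blood replicate 3 and 800 without fluid replicate 2. Over all genes the median difference was -0.08.

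The largest measured difference was that of Arg1, the arginase of alternatively activated and tissue-infiltrating myeloid cells. Arg1 read 10.53, 11.87 and 12.60 in the fluid arrays and 4.35, 4.06 and 4.28 in blood, a difference of 7.44 ± 0.35 (SE, adjusted p = 6.75e-15). All fluid arrays were far above the blood arrays, which lay at the level of the negative controls. Ccl2, the monocyte chemoattractant, read 10.56, 10.64 and 11.40 against 4.23, 4.25 and 4.24 (6.63 ± 0.26, adjusted p = 2.03e-16). C1qb, a chain of complement C1q made by macrophages, read 10.27, 11.01 and 10.60 against 4.07, 4.44 and 4.15 (6.41 ± 0.22, adjusted p = 6.89e-18). A second probe set of C1qb showed a difference of 0.20. Acod1, which makes itaconate in activated myeloid cells, read 9.07, 9.60 and 10.35 against 3.98, 4.02 and 3.94 (5.69 ± 0.37, adjusted p = 4.12e-12). For each of these genes blood was not above background, so each difference is at best a lower bound and their order is not settled. The second probe set of Acod1 differed by 1.49.

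Also among the 15 largest rises were the small leucine-rich proteoglycan Dcn (5.72), the cysteine protease Ctsl (5.61), the interleukin 1 receptor antagonist Il1rn (5.42), the chemokine Ccl7 (4.91), the membrane protein Emp1 (4.81), the nuclear lamin Lmna (4.64), the gap junction protein Gja1 (4.63), the anaphylatoxin receptor C3ar1 (4.50), the tetraspanin Cd63 (4.48), the endocytic adaptor Dab2 (4.39) and the scavenger receptor Stab1 (4.29). Weaker differences came from other probe sets of Lmna (0.41), Gja1 (1.13) and Dab2 (0.00 and 2.89). Dcn and Gja1 are genes of connective tissue cells, and their values by day are given further on. Within fluid, replicate 1 was the lowest array for each of the 15 genes, and the spread was widest for Arg1 (SD 1.05) and Ctsl (SD 1.04).

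The largest measured fall was that of Gimap4, a GTPase of lymphocytes. Gimap4 read 6.13, 5.57 and 5.95 in fluid and 11.73, 11.23 and 11.48 in blood (-5.60 ± 0.17, adjusted p = 1.21e-18). Ccl5, a chemokine of T and NK cells, read 6.80, 6.75 and 6.79 against 11.84, 11.64 and 11.69 (-4.95 ± 0.32, adjusted p = 3.51e-12). The groups stood apart in both, and fluid was not above background in either. The other large falls were the immunoglobulin kappa segment Igkv6-23 (-4.97), the T cell receptor segment Trbv1 (-4.13), the T cell surface chains Cd8b1 (-4.90) and Cd3d (-4.15), the B cell genes Blk, Cd79b, Ms4a1, Pou2af1 and Fcrla (-4.75, -4.63, -4.54, -3.91 and -3.63), the NK receptor Klra3 (-4.02), Ablim1 (-3.76), Pdcd4 (-3.52) and the red cell enzyme Bpgm (-3.43). The second probe sets of Blk, Trbv1 and Pou2af1 differed by -1.23, -0.73 and -0.51.

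**Figure D1:**
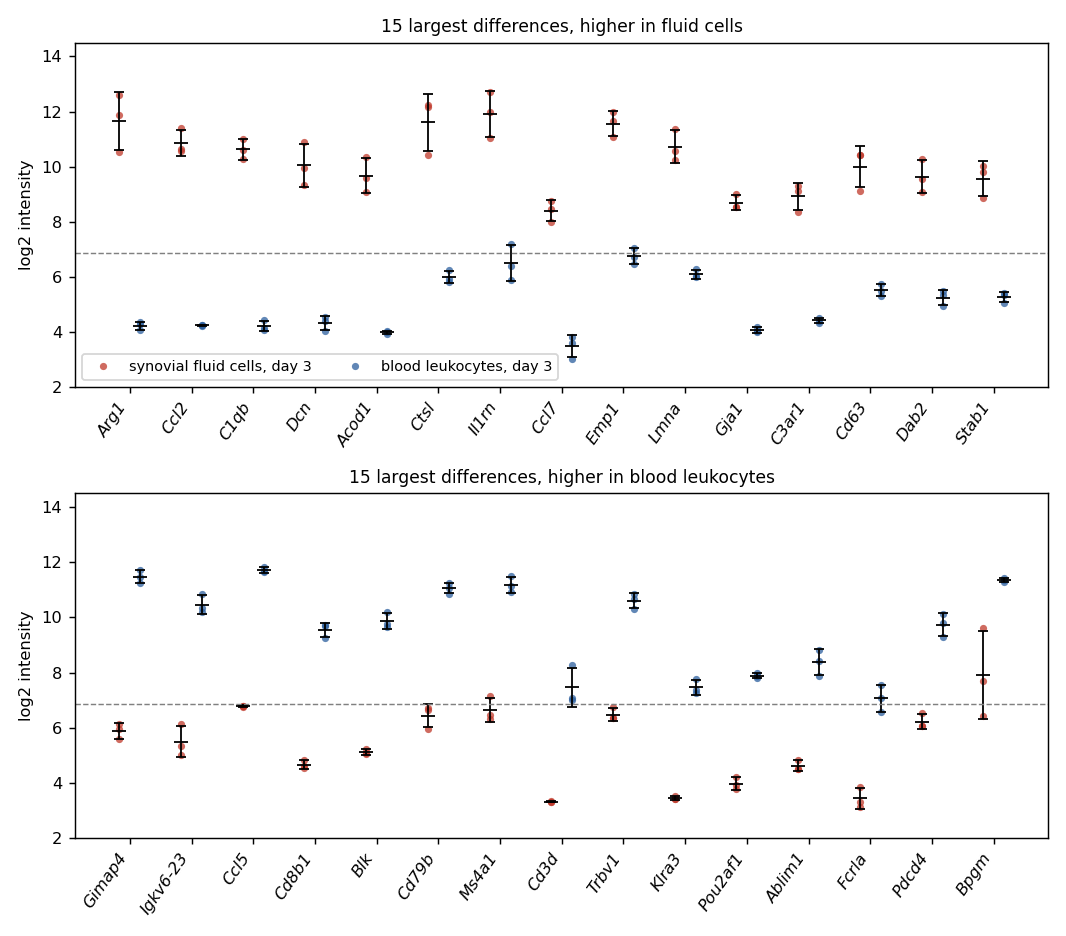
Log2 intensity of the 15 genes with the largest rise (top) and the 15 with the largest fall (bottom) at day 3, for the 3 fluid arrays (red) and the 3 blood arrays (blue). Points are arrays, black bars are mean and SD, and the dashed line is the background limit of 6.85. Most of the lower groups lie under that line, and Bpgm has the widest spread in fluid (SD 1.6).

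Of the neutrophil genes, 9 of 17 measured rose, none fell, and the median difference was 0.79 against -0.08 over all genes. Clec4d, a C-type lectin receptor, read 10.85, 11.40 and 11.68 in fluid and 8.11, 7.26 and 7.69 in blood, 12.28-fold higher (3.62 ± 0.41, adjusted p = 1.07e-07). S100a9, a calcium-binding protein abundant in neutrophils, read 11.50, 12.12 and 11.83 against 10.54, 10.23 and 10.63, 2.55-fold higher (1.35 ± 0.30, adjusted p = 0.00103). Clec4e (2.03), Itgam (0.63) and Ccrl2 (1.73) also rose, Clec4e and Itgam with both means within background. Mmp9, the granule gelatinase, did not pass the test, with means of 8.77 and 8.09 (adjusted p = 0.14). Ly6g, the marker used to sort mouse neutrophils, was not above background in either group, with 5.73 and 5.82 (adjusted p = 0.75). Of the 17 genes, 10 were above background in fluid and 8 in blood. The count of risen genes was 5 when the arrays were quantile normalized anew, and 6 to 9 without single arrays. The summed intensity of the 17 genes was 13905, 17755 and 16597 in fluid and 7173, 6614 and 7655 in blood.

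Of 10 measured genes of neutrophil precursors, which make the granules in the bone marrow, 1 rose and 2 fell, with a median of -0.18. These counts are near the shares over all genes (16% higher and 14.6% lower), and nothing is read from them. Camp, a granule cathelicidin, fell by 0.81 (adjusted p = 0.0432), and the myeloperoxidase gene Mpo fell by 0.59 (adjusted p = 0.00648) with both means within background. The call of Camp was lost without any of 5 of the 6 arrays, with adjusted p up to 0.165, and that of Mpo without blood replicate 3 (0.063) or fluid replicate 2 (0.051). Chil3, a secreted chitinase-like protein of monocytes, macrophages and granulocyte precursors, was the gene that rose, reading 10.27, 10.04 and 10.38 against 7.99, 7.85 and 7.03 (2.61 ± 0.35, adjusted p = 2.25e-06), 6.10-fold higher.

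Monocyte and macrophage genes had the largest shift of the blood cell lists: 13 of 15 rose, 1 fell, and the median was 2.62. Cd68, a lysosomal membrane protein of macrophages, read 10.52, 11.05 and 11.02 in fluid and 7.11, 7.06 and 6.74 in blood, 14.9-fold higher (3.89 ± 0.27, adjusted p = 1.09e-11). Apoe, the lipid carrier apolipoprotein E, read 12.77, 13.52 and 13.02 against 10.23, 9.31 and 9.11, 11.7-fold higher (3.55 ± 0.24, adjusted p = 9.37e-12). In blood Apoe was well above background, whereas Cd68 (mean 6.97, 1 of 3 arrays below the limit) lay close to it. Csf1r, the receptor that maintains monocytes and macrophages, read 10.36, 10.76 and 10.48 against 9.03, 8.46 and 7.93, 4.18-fold higher (2.06 ± 0.26, adjusted p = 8.6e-07). The scavenger receptor Msr1 (3.73), the mannose receptor Mrc1 (3.84), the high-affinity IgG receptor Fcgr1 (3.60), C1qa (3.90), C1qc (2.62), Adgre1, which encodes F4/80 (2.42), and Ccr2 (1.80) rose as well. Marco, a scavenger receptor, fell by 0.45 with both means within background (adjusted p = 0.0271), a call lost without blood replicate 2 or 3 or fluid replicate 2 or 3, with adjusted p up to 0.0955. For some of these genes a weaker probe set moved less: the second probe sets of Apoe, Cd68, Csf1r and Adgre1 differed by -0.06, 0.15, 0.08 and 0.43. The summed intensity of the list was 19555, 35346 and 30262 in fluid and 7692, 5109 and 3939 in blood, so the fluid array washed out of the ankle had the lowest sum of the fluid arrays. With only the fluid arrays collected during dissection and blood replicates 1 and 2, 13 genes of the list were again higher.

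Lymphocyte genes were low in fluid. Of 17 B cell genes all 17 fell (median -1.79), of 18 T cell genes 14 fell and none rose (median -1.54), and of 15 NK and cytotoxic genes 14 fell and none rose (median -1.07). Cd79b, a signalling chain of the B cell receptor, read 5.94, 6.64 and 6.72 in fluid and 11.07, 10.86 and 11.24 in blood (-4.63 ± 0.20, adjusted p = 9.75e-16). Cd3d, a chain of the T cell receptor complex, read 3.33, 3.31 and 3.31 against 8.28, 7.09 and 7.01 (-4.15 ± 0.25, adjusted p = 9.8e-13). A second probe set of Cd3d showed 0.11, with the other sign. Gzma, a granule protease of killer cells, read 4.70, 4.30 and 4.35 against 8.03, 7.78 and 7.58 (-3.34 ± 0.24, adjusted p = 1.69e-11). In each of these 3 probe sets the groups stood far apart. Fluid was above background for 5 of the 17 B cell genes, 5 of the 18 T cell genes and 0 of the 15 NK genes, where blood was above it for 14, 15 and 7. The summed intensity of the B cell list was 1661 to 2002 in fluid and 10615 to 13619 in blood, that of the T cell list 1530 to 1797 and 4084 to 5942, and that of the NK list 593 to 669 and 5001 to 6183. Among single arrays left out, the falling B cell genes numbered 15 to 17, the T cell genes 14 to 15 and the NK genes 12 to 15.

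Dendritic cell genes showed no common direction, with 2 of 10 higher and 3 lower (median 0.05), beside 16% and 14.6% of all genes. The falls numbered 1 without blood replicate 3, fluid replicate 2 or fluid replicate 3, and the rises 1 without blood replicate 2 or fluid replicate 2. Ccl17, a chemokine of dendritic cells and activated macrophages, read 6.90, 6.53 and 7.15 against 6.17, 6.29 and 6.30 (0.61 ± 0.16, adjusted p = 0.00423). Of 10 mast cell and basophil genes 1 rose and 2 fell, near the shares over all genes, and nothing is read from these counts. The riser was Hdc, which makes histamine and is also expressed by neutrophils and other myeloid cells. Hdc read 10.21, 10.60 and 10.52 against 7.81, 7.26 and 7.73, 7.19-fold higher (2.85 ± 0.37, adjusted p = 1.34e-06). The IgE receptor chain Ms4a2 and the proteases Mcpt4 and Mcpt8 were not above background in either group, and the protease genes Cma1 and Cpa3 fell (-0.98 and -0.77). The call of Cpa3 was lost without fluid replicate 2 (adjusted p = 0.0533), and 4 genes of the list fell without fluid replicate 1. None of 4 eosinophil genes passed the test or was above background.

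**Figure D2:**
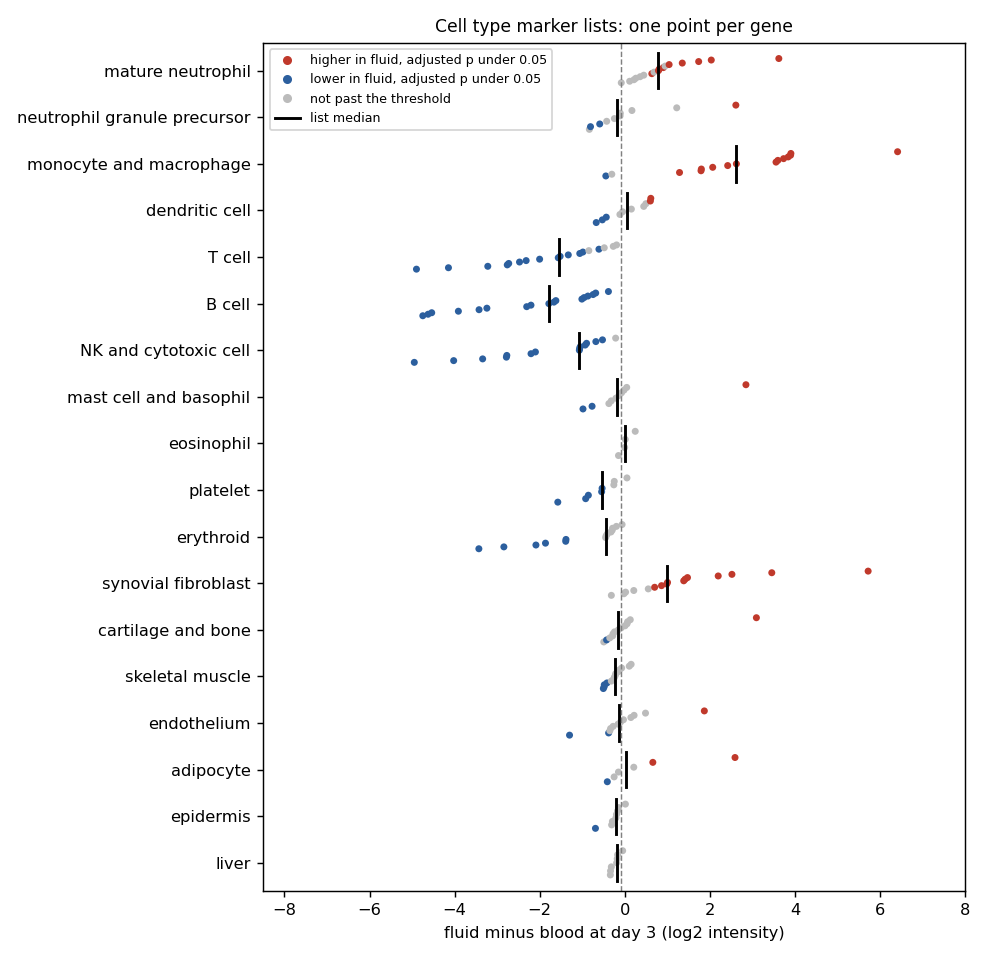
Fluid minus blood at day 3 for every measured gene of 18 cell type lists, one point per gene. Red and blue mark genes that rose or fell at an adjusted p under 0.05, black bars are list medians and the dashed line is the median of all genes (-0.08). The monocyte and macrophage list lies to the right (median 2.62) and the B, T and NK lists to the left.

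Red cell and platelet genes were lower in fluid. Of 14 erythroid genes 6 fell and none rose, and of 8 platelet genes 5 fell and none rose. Alas2, the haem synthesis enzyme of red cell precursors, read 8.03, 9.08 and 10.57 in fluid and 12.04, 11.82 and 12.36 in blood, 7.18-fold lower (-2.84 ± 0.59, adjusted p = 0.00053). The red cell enzyme Bpgm read 6.44, 7.70 and 9.61 against 11.35, 11.28 and 11.42. In both, fluid replicate 3 was the highest fluid array and replicate 1 the lowest. The summed intensity of the erythroid list was 5226, 8311 and 16383 in fluid and 24794, 29652 and 28135 in blood, so the list was higher in every blood array than in any fluid array. Its part in the other differences was not tested.

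Some genes of synovial fibroblasts were also measured in the fluid cells, where 7 of 16 were above background against 3 in blood. Of the 16, 11 rose, none fell, and the median was 0.99. Dcn read 9.34, 9.93 and 10.88 in fluid and 4.05, 4.55 and 4.41 in blood (5.72 ± 0.33, adjusted p = 3.34e-13). The collagen gene Col1a2 read 8.41, 8.4 and 9.21 against 5.67, 6.43 and 6.38 (2.52 ± 0.24, adjusted p = 4.53e-09). A second probe set of Col1a2 showed -0.29. Sparc, a matrix protein of connective tissue, read 6.41, 8.22 and 8.84 against 4.12, 4.42 and 4.58 (3.45 ± 0.37, adjusted p = 5.28e-08). The matrix protease Mmp3 was within background in both groups (5.60 and 4.59, adjusted p = 0.0139), and its call was lost without fluid replicate 2 (0.0737) or blood replicate 3 (0.0568). The summed intensity of the list was 2887, 3937 and 5505 in fluid, 942 to 1245 in blood and 25525 to 30773 in whole ankle of day 3. The count of risen fibroblast genes lay between 8 and 11 without single arrays.

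Genes of other tissues gave counts mostly near or below the shares over all genes (16% higher and 14.6% lower). The falls of muscle genes and the rises of adipocyte genes lay above these shares. The lists are short, and nothing is read from their counts. Of 13 cartilage and bone genes 1 rose, the osteoclast and fibroblast protease Ctsk (3.09), and 1 fell, which was lost without blood replicate 2 or 3 or fluid replicate 2 or 3. Of 14 skeletal muscle genes none rose and 4 fell, or 1 without blood replicate 2 or 3 and 2 without fluid replicate 2 or 3. The summed intensity of the muscle list was 1131 to 1524 in fluid, 1188 to 1573 in blood and 6497 to 24426 in ankle. Of 12 endothelial genes 1 rose and 2 fell, with 1 fall without blood replicate 2 or 3 or fluid replicate 2 and none without fluid replicate 3. The riser was Lyve1, a hyaluronan receptor of lymphatic vessels that some macrophages also carry, with 6.02, 5.18 and 7.64 against 4.04, 4.48 and 4.72, both means within background. Of 6 adipocyte genes 2 rose, Lpl (2.59, and 0.25 in its second probe set) and Fabp4 (0.66), which macrophages also express. The 1 fall of that list was lost without blood replicate 3 or fluid replicate 3, while Adipoq, the defining adipokine, was within background (4.19 and 3.98). Of 8 epidermal genes 1 fell, or none without blood replicate 2 or 3, and none of 7 liver genes passed the test, though 3 fell without blood replicate 1 and 2 without fluid replicate 1.

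The ligands of CXCR2 on the array were Cxcl1, Cxcl2 and Cxcl5. Cxcl1 read 7.33, 7.31 and 7.83 in fluid and 4.65, 4.84 and 4.57 in blood (2.80 ± 0.40, adjusted p = 5.44e-06). Cxcl2 read 9.30, 9.67 and 10.61 against 7.96, 6.92 and 6.92, 6.03-fold higher (2.59 ± 0.51, adjusted p = 0.000292). Both were higher in every fluid array than in any blood array. Cxcl5 read 4.78, 4.85 and 4.88 against 4.36, 4.74 and 4.30, all within background (0.37 ± 0.35, adjusted p = 0.44). The receptor Cxcr2 was within background in both groups as well, with 4.44, 4.93 and 5.06 against 4.29, 4.19 and 4.61 (adjusted p = 0.0955). Of 7 other CXC chemokines none rose and 1 fell, a call lost without blood replicate 2, and none was above background in either group.

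The 200 bases before the start of Cxcl1 and Cxcl2 are shown because both rose and each holds a kappaB motif, the recognition sequence of NF-kappaB, printed in capitals. They are given 5' to 3' from RefSeq's promoter table (GRCm38.p6), on the plus strand at chr5:90891045-90891244 and chr5:90903699-90903898.
Cxcl1: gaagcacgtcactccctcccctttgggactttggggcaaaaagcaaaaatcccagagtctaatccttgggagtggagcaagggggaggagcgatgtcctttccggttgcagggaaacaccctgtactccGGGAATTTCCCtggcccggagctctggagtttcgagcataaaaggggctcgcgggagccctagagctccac
Cxcl2: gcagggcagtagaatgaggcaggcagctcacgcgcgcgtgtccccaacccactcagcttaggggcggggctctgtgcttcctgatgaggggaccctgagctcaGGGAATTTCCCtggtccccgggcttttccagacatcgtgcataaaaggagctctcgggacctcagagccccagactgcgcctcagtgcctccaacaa
In Cxcl1 the motif began 71 bases before the start and in Cxcl2 97 bases before it, with the same letters in both. Searched on both strands, the motif stood in the 200 bases before a start in 6.92% of 27025 genes with an entry. Of the 9 CC chemokines that rose, 6 had an entry and 1, Ccl9, held the motif in this window. Entries for Ccl2 and Ccl7 were missing. The motif was chosen with the results known, and a match describes letters only.

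Among 14 CC chemokines 9 rose and 1 fell. Ccl7, which attracts monocytes through CCR2 as Ccl2 does, read 7.99, 8.45 and 8.74 in fluid and 3.03, 3.61 and 3.82 in blood (4.91 ± 0.28, adjusted p = 2.99e-13). Ccl9, a ligand of CCR1, read 10.74, 11.16 and 11.27 against 7.78, 7.31 and 7.3, 12.07-fold higher (3.59 ± 0.28, adjusted p = 1.47e-10). Ccl3, another ligand of CCR1, read 10.41, 9.74 and 10.75 against 8.19, 7.66 and 7.72, 5.43-fold higher (2.44 ± 0.26, adjusted p = 3.5e-08). Ccl4 (2.24), Ccl6 (1.58), Ccl8 (1.03), Ccl12 (0.63) and Ccl17 (0.61) rose less, and the call of Ccl12 was lost without fluid replicate 1 (adjusted p = 0.0895). Ccl5 was the member that fell.

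Of 21 receptors for chemoattractants 9 rose and 7 fell. Ccr1 read 7.95, 9.48 and 9.35 in fluid and 4.81, 4.94 and 5.40 in blood (3.87 ± 0.51, adjusted p = 1.4e-06). C3ar1, the receptor of complement fragment C3a, read 8.36, 9.11 and 9.29 against 4.52, 4.40 and 4.34 (4.50 ± 0.31, adjusted p = 1.35e-11). Ltb4r1, the leukotriene B4 receptor of neutrophils and other myeloid cells, read 9.42, 9.02 and 8.46 against 7.14, 7.34 and 7.38, 3.19-fold higher (1.68 ± 0.24, adjusted p = 5.09e-06). These 3 receptors did not overlap between fluid and blood. Ackr3 (3.33), Fpr2 (1.85) and Cxcr4 (1.54) also rose. Ccr6 and Ccr7, receptors of lymphocytes, fell (-1.13 and -1.57). The receptor of C5a, C5ar1, did not pass the test, with 6.6 and 6.73, both within background. The falls numbered 4 without blood replicate 3 or fluid replicate 2.

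Among interleukin 1 genes 7 of 13 rose and 1 fell. Il1b read 9.52, 10.60 and 10.67 in fluid and 8.30, 7.49 and 8.37 in blood, 4.62-fold higher (2.21 ± 0.48, adjusted p = 0.000843). Its antagonist Il1rn read 11.04, 11.98 and 12.71 against 7.18, 5.89 and 6.39 (5.42 ± 0.51, adjusted p = 4.26e-09). The decoy receptor Il1r2 read 11.36, 11.63 and 11.57 against 8.53, 8.35 and 8.62, 8.12-fold higher (3.02 ± 0.35, adjusted p = 1.56e-07). The cytokine and both of its inhibitors were thus higher in all fluid arrays. Il18r1, an interleukin 18 receptor chain of T and NK cells, fell by 2.38 ± 0.20 (adjusted p = 8.51e-10).

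Of 17 genes of the TNF and interleukin 6 families 5 rose and 2 fell. Tnf read 7.63, 6.95 and 7.34 in fluid and 5.93, 6.19 and 6.15 in blood (1.22 ± 0.22, adjusted p = 0.000106). Tnfrsf1b, a TNF receptor, rose 3.79-fold and the feedback inhibitor Socs3 rose 3.72-fold. Ltb, the lymphotoxin of lymphocytes, fell 8.17-fold, from 10.63 in blood to 7.6 in fluid. Il6 was within background in both (3.06 and 3.00). With only dissected fluid and blood replicates 1 and 2 the risen genes of this list numbered 3. Of 9 colony stimulating factor genes 5 rose and none fell, among them Csf1 (2.22 ± 0.25), the growth factor of macrophages, and the receptor chain Csf2rb2 (2.46 ± 0.26). The granulocyte factor Csf3 was within background in both groups (6.36 and 6.43).

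Lysosomal genes rose nearly throughout: 18 of 19 were higher, none lower, and the median was 2.30. Ctsl read 10.41, 12.17 and 12.25 in fluid and 6.25, 5.82 and 5.94 in blood (5.61 ± 0.36, adjusted p = 3e-12). Ctsb, another cysteine protease, read 11.66, 12.15 and 11.66 against 9.04, 8.31 and 8.49, 9.23-fold higher (3.21 ± 0.21, adjusted p = 3.51e-12). Ctsd, an aspartic protease, read 12.14, 12.38 and 11.90 against 9.56, 9.79 and 10.16, 4.94-fold higher (2.30 ± 0.19, adjusted p = 5.31e-10). Fluid was above background for all 19 genes and blood for 11. Cd63 (4.48), Lgmn (3.83) and Lamp1 (1.88) rose as well. Without single arrays 17 to 18 of the genes were higher.

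Of 13 genes used to describe the activation of macrophages 11 rose and none fell, with a median of 1.66. Besides Arg1, Mrc1 and Chil3 the list held Fabp5, a fatty acid carrier, with 10.58, 10.66 and 10.18 against 6.86, 7.33 and 7.16, 10.2-fold higher (3.36 ± 0.20, adjusted p = 6.64e-13). Lgals3, encoding galectin 3, read 9.16, 10.51 and 11.50 against 6.70, 6.42 and 5.54 (4.17 ± 0.48, adjusted p = 1.71e-07). Tgfbi rose by 3.85, Il4ra by 1.52 and Pparg by 1.26, while second probe sets of Tgfbi and Il4ra showed -0.04 and -0.52. Nos2, the inducible nitric oxide synthase that marks the opposite activation state, was within background in both groups, with 5.33 and 5.36 (adjusted p = 0.91).

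Of 10 pattern receptors and related lectins 8 rose and 1 fell. Cd14, the lipopolysaccharide co-receptor of monocytes and neutrophils, read 12.86, 12.73 and 13.27 in fluid and 8.81, 8.73 and 8.66 in blood, 18.6-fold higher (4.22 ± 0.25, adjusted p = 3.72e-13). Of 8 Fc receptor genes 4 rose and 1 fell, or 2 without blood replicate 1, fluid replicate 1 or fluid replicate 3. Fcgr1 read 9.57, 9.83 and 9.60 against 6.14, 6.28 and 5.79 (3.60 ± 0.32, adjusted p = 1.34e-09). The inhibitory IgG receptor Fcgr2b read 8.28, 8.98 and 9.03 against 6.32, 6.13 and 6.07 (2.59 ± 0.24, adjusted p = 2.67e-09), so that activating and inhibitory receptors both rose. The signalling chain Fcer1g rose by 1.78, and Fcer2a, an Fc receptor of B cells, fell by 1.79. Of 14 complement genes 7 rose and 3 fell, or 1 without blood replicate 3 or fluid replicate 2. The rises were led by the 3 C1q chains, C3ar1 and properdin (Cfp, 2.87). Cd55, which restrains complement on cell surfaces, fell by 2.13 with both means within background.

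Genes of glycolysis and of the response to low oxygen rose in 16 of 22 cases and fell in 2, with a median of 1.39. Tpi1, triose phosphate isomerase, read 10.58, 10.96 and 10.93 in fluid and 7.63, 7.62 and 7.5 in blood, 9.46-fold higher (3.24 ± 0.18, adjusted p = 1.29e-13). Pgk1, phosphoglycerate kinase, read 10.83, 11.75 and 12.05 against 10.30, 8.67 and 8.62, 5.09-fold higher (2.35 ± 0.43, adjusted p = 0.000119). Ldha, lactate dehydrogenase A, read 11.38, 11.84 and 11.79 against 10.17, 8.66 and 9.19, 5.02-fold higher (2.33 ± 0.40, adjusted p = 6.23e-05). In both of the latter, blood replicate 1 was the highest blood array, yet below every fluid array. Hif1a, the oxygen-regulated transcription factor, rose by 1.6 ± 0.25 and the glucose transporter Slc2a1 by 1.15 ± 0.17. Vegfa, the vascular growth factor, rose by 1.66 within background. Hexokinases went opposite ways, with Hk2 up by 1.76 (-0.04 in its second probe set) and Hk1, the form found in red cells, down 2.52-fold (adjusted p = 4.67e-06). Adm, encoding adrenomedullin, was the other gene that fell (-0.54).

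The 200 bases before the start of Pgk1 and Ldha are shown because both rose and hold the core of the hypoxia response element, ACGTG, or CACGT where it lies on the other strand, in capitals. They come from RefSeq (GRCm38.p6), on the plus strand at chrX:106186900-106187099 and chr7:46845604-46845803.
Pgk1: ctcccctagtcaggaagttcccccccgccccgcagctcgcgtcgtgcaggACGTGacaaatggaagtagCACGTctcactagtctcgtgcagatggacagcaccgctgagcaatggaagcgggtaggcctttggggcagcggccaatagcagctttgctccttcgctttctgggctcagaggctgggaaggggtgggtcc
Ldha: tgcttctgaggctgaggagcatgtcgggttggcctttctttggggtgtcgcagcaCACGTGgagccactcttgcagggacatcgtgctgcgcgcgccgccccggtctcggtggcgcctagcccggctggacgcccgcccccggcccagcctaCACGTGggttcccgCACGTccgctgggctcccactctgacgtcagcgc
The capitals formed 2 stretches in Pgk1 and 3 in Ldha. The stretches CACGTG hold the core on both strands and are also an E-box, the site of other factors. Of the 16 risen genes 15 had an entry, and 11 of them (73.3%) held the core in this window, among them Hif1a, Slc2a1 and Hk2. Over all 27025 genes with an entry the share was 15.7%. The core was chosen with the results known, and the shares are a description with no test.

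**Figure D3:**
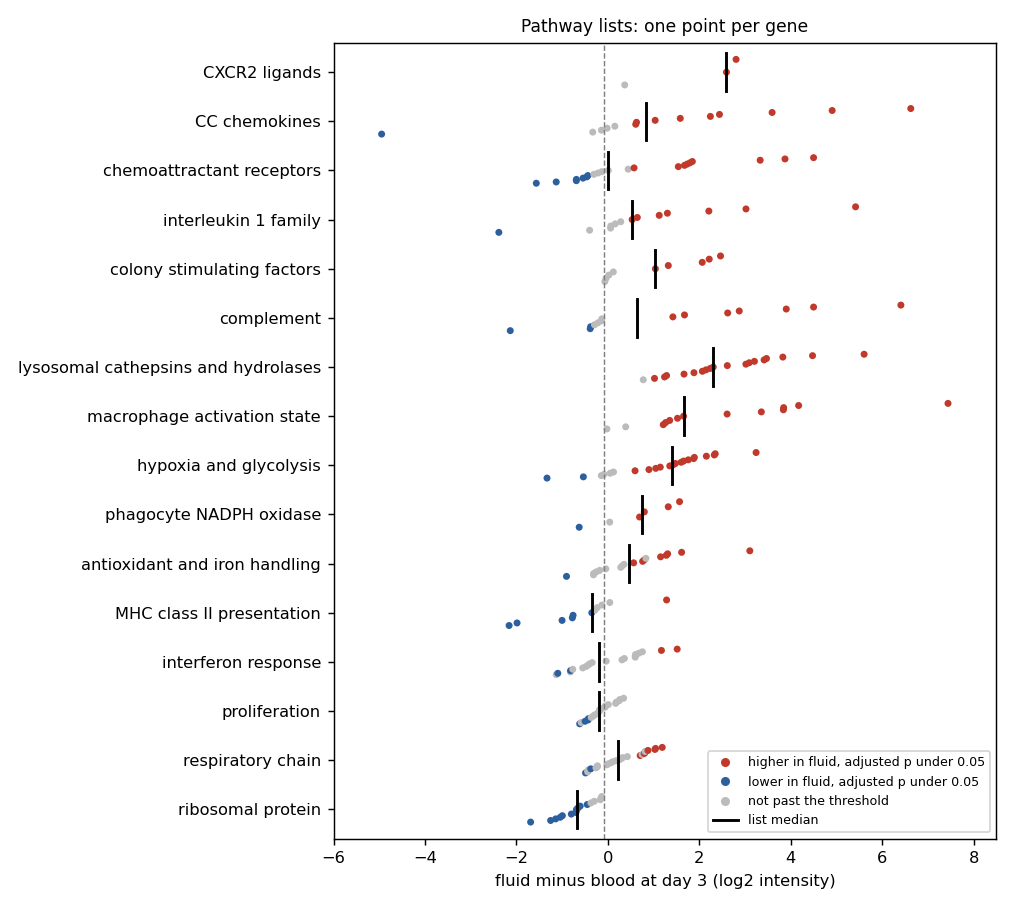
Fluid minus blood at day 3 for every measured gene of 16 pathway lists, one point per gene, coloured as in the plot of cell type lists. Black bars are list medians and the dashed line is the median of all genes (-0.08). Lysosomal genes (median 2.30) and glycolytic genes (1.39) lie to the right, and ribosomal protein genes (-0.68) to the left.

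Of 6 genes of the phagocyte NADPH oxidase, which makes superoxide, 4 rose and 1 fell. Cyba, its small membrane subunit, read 12.27, 12.25 and 12.46 in fluid and 11.19, 10.87 and 10.96 in blood, 2.5-fold higher (1.32 ± 0.21, adjusted p = 1.6e-05). Ncf4, a cytosolic subunit, rose 2.97-fold. Cybb, the catalytic subunit, was within background in both groups (4.89 and 4.85). Rac2 fell by 0.63, a call lost without any of 5 of the 6 arrays, with adjusted p up to 0.151. Of 18 antioxidant and iron genes 8 rose and 1 fell, with no fall without blood replicate 2 or 3 or fluid replicate 1 or 2. Slc11a1, a metal transporter of phagosomes, rose by 3.1 ± 0.25 (adjusted p = 3.18e-10), and the haem oxygenase Hmox1 rose 2.48-fold.

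Ribosomal protein genes fell in 12 of 17 cases and rose in none, with a median of -0.68. Rps4x read 9.62, 10.59 and 10.45 in fluid and 11.77, 12.203 and 11.76 in blood, 3.23-fold lower (-1.69 ± 0.24, adjusted p = 5.82e-06). The respiratory chain was mixed, with 7 of 26 higher and 2 lower at a median of 0.22. Without blood replicate 3, fluid replicate 2 or fluid replicate 3, 4 were higher, and none was lower without any of these or without blood replicate 2. Sdhc, a subunit of succinate dehydrogenase, rose 2.28-fold. None of 21 proliferation genes rose, beside 16% of all genes, and 4 fell, beside 14.6%. The count of falls is near that share, and nothing is read from it. With only dissected fluid and blood replicates 1 and 2, none of the list was lower. The falls numbered 1 without blood replicate 2 or 3 and 2 without fluid replicate 3.

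Apart from the heat shock and stress list, the lists of this paragraph had counts near or below the shares over all genes (16% higher and 14.6% lower). Nothing is read from those counts. Of 20 immediate early transcription factors 4 rose and 2 fell, or 1 fell without blood replicate 1 or 2 or fluid replicate 2 or 3. Egr2 (2.37 ± 0.28) and Atf3 (1.94 ± 0.35) were higher, whereas Fos (9.63 and 9.58, adjusted p = 0.96) did not pass the test. Of 18 NF-kappaB feedback and survival genes 4 rose and 2 fell, or 1 without blood replicate 2 or fluid replicate 3. The rises included Ier3 (2.59 ± 0.41) and the survival factor Mcl1 (1.19 ± 0.24), while the inhibitor Nfkbia did not pass the test (9.39 and 9.24, adjusted p = 0.78). Of 18 heat shock and stress genes 8 rose, above the share over all genes, and none fell. Without blood replicate 3 or fluid replicate 3, 5 rose. The rises included Gadd45b (5.2-fold) and the cell cycle inhibitor Cdkn1a (4.13-fold). Interferon response genes gave 2 of 20 in each direction, with Ifi204 (2.86-fold) and Isg15 (2.25-fold) higher. The falls of that list numbered 6 after quantile normalization anew, 1 without fluid replicate 2 and 0 without blood replicate 1 or fluid replicate 3. Its rises numbered 4 without blood replicate 1. Of 13 clock and glucocorticoid genes 1 fell, or none without blood replicate 1 or fluid replicate 2 or 3, and none rose.

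Of 21 adhesion genes 7 rose and 2 fell. Cd44, a hyaluronan receptor, read 7.45, 7.44 and 7.27 in fluid and 5.43, 5.07 and 5.0 in blood (2.22 ± 0.29, adjusted p = 1.4e-06). The integrin chains Itgav (3.63-fold) and Itgb2 (2.68-fold) rose, while Itga4, the chain of the lymphocyte integrin VLA-4, fell by 2.05 and Icam2 by 1.70. Without fluid replicate 2, 4 genes of the list rose. Of 16 proteases and inhibitors 7 rose and none fell, though 2 fell without blood replicate 1 or fluid replicate 1. Timp1, an inhibitor of metalloproteases, read 12.104, 11.63 and 11.37 against 8.77, 9.44 and 9.23, 5.87-fold higher (2.55 ± 0.24, adjusted p = 5.82e-09). Adam8, a leukocyte surface protease, rose 6.97-fold, and the urokinase receptor Plaur rose 2.72-fold. Of 15 lipid mediator genes 6 rose and 1 fell, with the leukotriene C4 synthase Ltc4s up by 1.97 ± 0.20 and the platelet lipoxygenase Alox12 down by 1.58 ± 0.27.

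Genes of antigen presentation by MHC class II were low or even. Of 11 measured, 6 fell and 1 rose, with a median of -0.35. H2-Oa, a chain of the B cell regulator of peptide loading, read 6.70, 6.77 and 6.6 in fluid and 8.78, 8.79 and 8.98 in blood (-2.16 ± 0.21, adjusted p = 9.53e-09). Cd74, the invariant chain, read 8.76, 9.66 and 8.67 against 9.99, 9.77 and 10.33, 2.00-fold lower (-1.0 ± 0.23, adjusted p = 0.00152). The class II chains themselves did not pass the test: H2-Ab1 had means of 9.83 and 9.79 (adjusted p = 0.93), H2-Aa 11.46 and 11.70 (0.59) and H2-Eb1 10.63 and 10.91 (0.34). Ctss, the protease that trims the invariant chain, rose by 1.28 with an adjusted p of 0.018. Leaving out blood replicate 2 or 3 or fluid replicate 2 or 3 ended this call, with adjusted p up to 0.121.

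The difference at day 3 was then compared with the mean difference at days 7, 12 and 18, which rests on 18 other arrays. At these later days 1886 genes were higher in fluid (22.9%) and 2340 lower (28.4%), 4226 in all (51.2%). The later mean rests on more arrays and had smaller standard errors, as for Arg1 (0.21 against 0.35 at day 3). More genes past the threshold therefore need not mean larger differences. Of the 1317 genes higher at day 3, 1146 (87.0%) were higher later too, which is 60.8% of the later list. Of the 1203 lower genes 1019 (84.7%) were lower later too, or 43.5% of the later list. The difference itself changed for 284 genes (3.44%), of which 78 were higher at day 3 (0.945%) and 206 lower (2.5%). Without blood replicate 2 or fluid replicate 2 the number higher at day 3 was 34, and without blood replicate 3 it was 35.

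Connective tissue genes made up the largest of these changes. Of the 16 fibroblast genes 12 had a smaller difference at day 3, and the median difference of the list was 0.99 at day 3 against 2.98 later. Lum, a proteoglycan of collagen matrix, averaged 6.41 in fluid at day 3 and 9.78, 10.38 and 10.26 at days 7, 12 and 18, while the ankle of day 3 averaged 9.48. The day 3 difference was smaller by 3.77 ± 0.36 on the log2 scale (adjusted p = 1.24e-07). Mmp3 averaged 5.60 in fluid at day 3 and 8.91, 9.33 and 9.14 later. Dcn averaged 10.05 and then 11.84, 12.39 and 12.63, so that this gene was already high in fluid at day 3 but lower than on every later day. From day 3 to day 18 the highest blood mean was 5.30 for Lum and 4.59 for Mmp3. Col5a2, Gas1, Fstl1 and Lamb1 showed day 3 differences smaller by 3.34, 3.12, 3.06 and 2.90. The CXCR2 ligand Cxcl5 was part of this group in its course: 4.84 in fluid at day 3 and 7.25, 7.68 and 6.57 later (-2.35 ± 0.40, adjusted p = 0.000398).

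**Figure D4:**
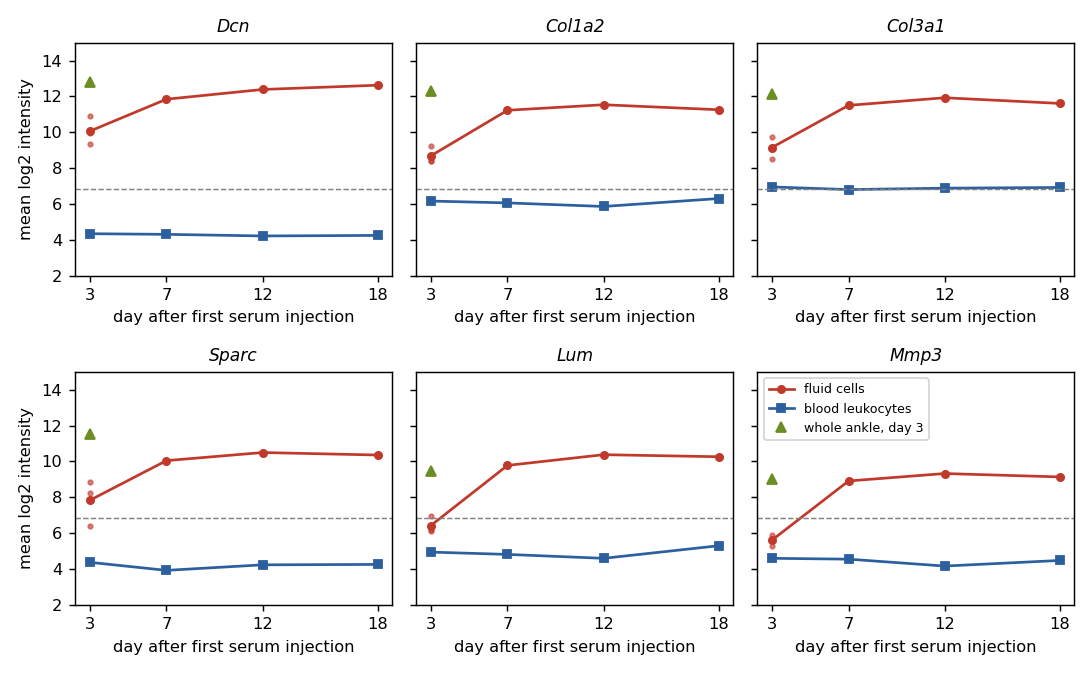
Mean log2 intensity of 6 connective tissue genes by day in fluid cells (red) and blood leukocytes (blue), with the mean of the whole ankle at day 3 (green triangle). Small red points are the 3 fluid arrays of day 3 and the dashed line is the background limit. In fluid each of the 6 genes is lower at day 3 than at days 7, 12 and 18, as with Lum (6.41 against 9.78, 10.38 and 10.26).

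In the other direction stood chemokines and genes of activated myeloid cells. Chil3 averaged 10.23 in fluid at day 3 and 8.27, 8.12 and 7.84 at later days, and its day 3 difference exceeded the later one by 2.35 ± 0.41 (adjusted p = 0.000493). Ccl2 averaged 10.87 and then 9.0, 9.89 and 9.36 (1.77 ± 0.30, adjusted p = 0.000362). Ccl7 averaged 8.39 and then 6.31, 7.04 and 6.18 (1.86 ± 0.33, adjusted p = 0.000493). In fluid these 3 genes had their highest mean at day 3. Cxcl12, a CXC chemokine of stromal cells, went the other way (-1.05, adjusted p = 0.0486) with both day 3 means within background, a call lost without blood replicate 2 or 3 or fluid replicate 2 or 3 (adjusted p up to 0.237). Of the 14 CC chemokines 5 had a larger difference at day 3 and none a smaller one, and of the 13 macrophage activation genes 4 had a larger one, or 2 without blood replicate 3. Adam8 (1.66), Ltb4r1 (1.28) and Plaur (1.28) did as well, but the call of Plaur was lost without fluid replicate 3 (adjusted p = 0.0711) or blood replicate 3 (0.0652). That of Ltb4r1 was lost with only dissected fluid and blood replicates 1 and 2. Il4, the cytokine, averaged 6.64 in fluid at day 3 and 4.30, 5.07 and 5.39 later, all within background (1.84 ± 0.42, adjusted p = 0.0086).

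Of 11 MHC class II genes 6 had a higher difference at day 3 than later and none a lower one, but this count rested on single arrays. It was 1 without fluid replicate 2, 2 without blood replicate 2, 4 without blood replicate 3 and 3 with only dissected fluid and blood replicates 1 and 2. The list's median difference was -0.35 at day 3 and -1.37 later. H2-Eb1 averaged 10.63 in fluid at day 3 and 9.97, 10.06 and 9.57 later (1.09 higher, adjusted p = 0.0108), and Cd74 averaged 9.03 and then 8.38, 8.32 and 7.72 (1.07 higher, adjusted p = 0.0174). In blood the averages of H2-Eb1 lay between 10.91 and 11.60 from day 3 to day 18. The call of H2-Eb1 was lost without fluid replicate 2 (adjusted p = 0.0813), and that of Cd74 without fluid replicate 2 (0.14) or blood replicate 2 (0.102).

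**Figure D5:**
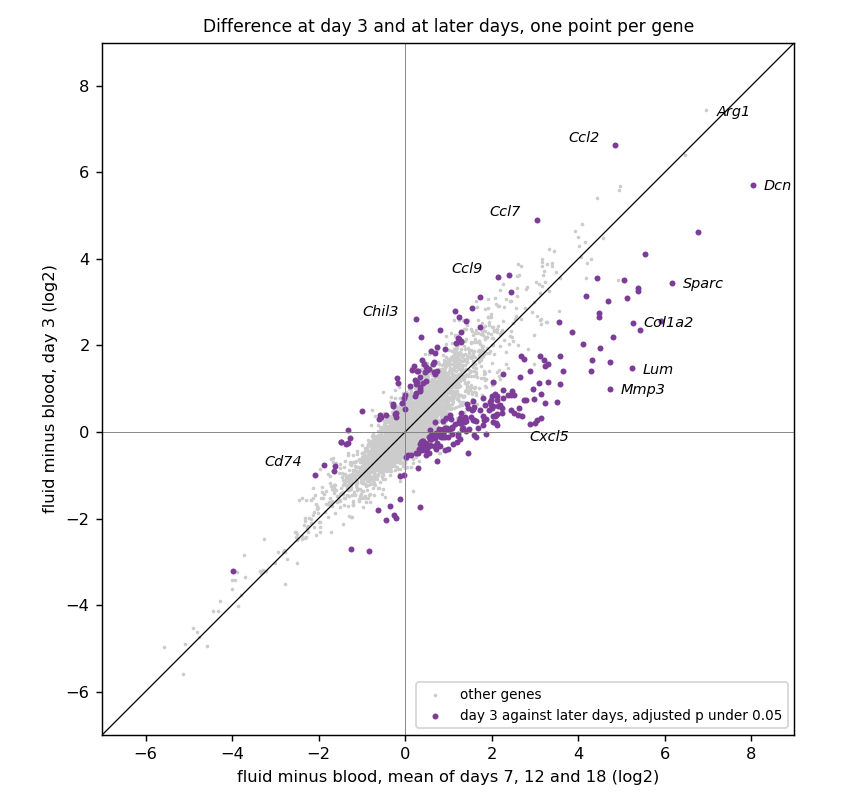
Fluid minus blood at day 3 against the mean of that difference at days 7, 12 and 18, one point per gene (log2). Purple marks the 284 genes whose difference changed between day 3 and later days at an adjusted p under 0.05, and the line marks equality. Connective tissue genes such as Lum and Mmp3 lie to the right of the line, and Ccl2, Ccl7, Ccl9 and Chil3 above it.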

How the data were processed

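The authors deposited linear intensity values of 12488 probe sets on 49 arrays, summarised with RMA per the submitters' processing notes. Its version was not given in the sources used here. RMA fits all arrays together, and it also sets a floor under dim probe sets and compresses differences there. From the deposited intensity the log2 was taken with no further normalization. Probe sets with 1 symbol in the platform annotation (10833) were kept, those with several (396) or none (1259, controls included) were left out, and the probe set with the highest mean over all arrays stood for each of 8251 genes, of which 2073 had more than 1. No pair of arrays held identical values.

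One mean per tissue and day was fitted over all 30 fluid and blood arrays with limma 3.58.1 (R 4.3.3; lmFit and eBayes with a trend), so that the 6 arrays of day 3 share the spread of all groups. The contrasts were fluid minus blood at day 3, its mean at days 7, 12 and 18, and the difference of both, with Benjamini-Hochberg adjustment at 0.05. Alternatives were array centring, quantile normalization anew, a floor, a filter on dim genes, the mean of probe sets, robust eBayes, array weights, other sets of arrays, preparation or replicate number in the model, single arrays left out and, chosen after seeing the data, the beta-actin ratio as a covariate. The number of arrays limits the precision. The fit was tested on simulated data. Tables and figures used Python 3.11.15, pandas 2.3.3 and matplotlib 3.10.9.

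The members and all 45 gene lists were chosen with earlier results of these data known, so list counts are descriptions. Named by rule were the 15 largest rises and falls that passed, had no overlap between arrays and lay above background on the higher side, Cxcr2 and its ligands, up to 5 members of each list with the smallest p, called members against their list's majority, and the 6 largest changes between day 3 and later days in each direction. A further 44 genes were added after their values were seen, among them Il1b, Pgk1, Ldha, Hif1a, Nos2, Ly6g and the class II chains. Same-numbered fluid and blood arrays deviated from their group means with r of -0.50, -0.13 and -0.50. With 3 arrays per group these deviations constrain each other, so r cannot settle whether the numbers pair arrays. Promoter letters come from RefSeq.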

Additional observations from a re-analysis of the deposited data

Results flagged for a closer look

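For 45 of the named genes the difference between fluid and blood at day 3 was not the difference at days 7, 12 and 18, by the test of the difference itself in limma (adjusted p under 0.05 over 8251 genes). Values are the day 3 difference minus the later one on the log2 scale. With 3 arrays in each day 3 group, no test for an outlying array was made within a group.

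Matrix and connective tissue genes had a smaller difference at day 3: Lum (-3.77), Mmp3 (-3.73), Col5a2 (-3.34), Gas1 (-3.12), Fstl1 (-3.06), Lamb1 (-2.90), Postn (-2.82), Fap (-2.79), Col1a2 (-2.75), Sparc (-2.71), Mmp13 (-2.71), Col3a1 (-2.62), Dcn (-2.32), Gja1 (-2.15), Pdgfra (-2.08), Ackr3 (-2.06), Ctsk (-2.04), Vcam1 (-1.98) and Timp3 (-1.53). The chemokines Cxcl5 (-2.35) and Cxcl12 (-1.05) did so too. Fluid replicates 1 to 3 of day 3 had summed fibroblast intensities of 2887, 3937 and 5505, and the part of collection in these values was not tested.

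CC chemokines had a larger difference at day 3: Ccl7 (1.86), Ccl2 (1.77), Ccl9 (1.44), Ccl6 (1.14) and Ccl17 (0.90). Other genes had a higher value of fluid minus blood at day 3 than later. Of myeloid cells these were Chil3 (2.35), Adam8 (1.66), Ltb4r1 (1.28), Plaur (1.28), Il4ra (1.32), Pparg (0.93) and Cd36 (0.67). Class II and antigen presentation genes were H2-Ab1 (1.35), H2-Aa (1.26), H2-DMb1 (1.14), H2-DMa (1.1), H2-Eb1 (1.09), Cd74 (1.07) and Cd83 (1.48). The glycolytic genes Slc2a1 (0.87) and Tpi1 (0.80) belonged here, as did Il4 (1.84), Rgl1 (1.55) and Cd2 (0.75). A higher value is not always a larger difference. Cd2 stood at -3.22 at day 3 and -3.97 later, and the class II list at medians of -0.35 and -1.37, so fluid was less far below blood at day 3.

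Leaving out 1 array ended some of these calls. Without blood replicate 2 this held for Cd2 (adjusted p = 0.287), Cxcl12 (0.232), H2-Aa (0.109), Cd74 (0.102), H2-DMb1 (0.0977), Ccl6 (0.0933), Il4ra (0.0759), H2-Ab1 (0.0633) and Tpi1 (0.0579). Without blood replicate 3 it held for Cxcl12 (0.151), H2-Ab1 (0.135), H2-Aa (0.123), Tpi1 (0.0906), Cd2 (0.0898), Cd83 (0.0777), Cd36 (0.0683), Plaur (0.0652), Ccl6 (0.0637) and Il4ra (0.0509). Without fluid replicate 2 it held for Cxcl12 (0.237), H2-Aa (0.19), H2-Ab1 (0.163), Cd74 (0.14), H2-DMb1 (0.135), Pparg (0.11), Tpi1 (0.1), Cd2 (0.0967), H2-Eb1 (0.0813), Il4ra (0.0801) and Ccl6 (0.0665). Without fluid replicate 3 it held for Cxcl12 (0.186), Ccl6 (0.111), Cd2 (0.088), Plaur (0.0711), Tpi1 (0.0709), Cd36 (0.0706) and Cd83 (0.0564). Without fluid replicate 1 it held for Cd2 (0.0674), H2-Aa (0.0617) and Cd36 (0.0538), and without blood replicate 1 for H2-Aa (0.0601). The call of Ltb4r1 was lost with only dissected fluid and blood replicates 1 and 2. In all, 29 of the 45 genes kept the same call under every alternative that gives this difference.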

How the results depend on the processing

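Followed over 19 alternatives, 259 named genes gave 4581 day 3 values on the same side of the threshold. A further 281 values lost the call, 17 gained it and 1 reversed, and 191 genes kept the same call throughout. Where a gene passed in neither fit, the direction was not compared. The reversed value was that of C1ra, which fell by 0.38 (adjusted p = 0.0356) and stood at 0.31 (adjusted p = 0.0528) with the mean of all its probe sets. With array weights 5301 genes passed at day 3, 2170 higher and 3131 lower, and 1944 changed between day 3 and later days, 1002 higher and 942 lower. The genes lower at day 3 numbered 625 with only the 6 arrays of day 3, and 722 with only dissected fluid and blood replicates 1 and 2, where the genes higher against later days numbered 35. Without single arrays, 1754 to 2795 genes passed at day 3, 1023 to 1359 higher and 731 to 1436 lower; 202 to 332 changed against later days, 34 to 116 higher and 167 to 216 lower. The counts at later days stayed within 1.5 times. With the replicate number as a replicate block, 1087 genes passed, 766 higher and 321 lower. Whether these numbers pair the arrays is not settled (r of deviations -0.50, -0.13 and -0.50 for equal numbers). The replicate block fit and the fit of the 6 arrays hold no later day and give no value there. In 4579 genes neither group was above background, which limits what can be said of their size. The causes were not tested.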
